A study of Mus musculus with 16 samples.

Results

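The genes described here encode the small RNA-binding proteins and splicing factors at the core of the spliceosome, together with their close relatives. They were chosen by symbol: protein-coding genes whose symbol starts with Lsm or Snrp followed by a number or letter, or with Sf3a or Sf3b, without Snrpn and without pseudogenes. Of 55359 gene IDs in the count tables, 21877 of them protein-coding, 34 met this rule. They comprise 7 Sm core proteins, 4 proteins of U1 or U2 alone, 9 SF3 subunits, 8 subunits of the LSm rings, 2 proteins of the U7 particle and 3 other LSm proteins. The remaining gene, Lsmem1, meets the rule by its letters but is named as a membrane protein. It lay between 0 and 0.298 CPM (counts per 1000000 counts) and was not tested, so 33 members were tested among 21543 genes.

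RNA was measured in the cortex of mouse fetuses at gestational day 16. The 16 libraries form 8 groups of 2, male and female fetuses for each of 4 parental exposures. The groups are labelled as control, and as ethanol exposure of the father (paternal), the mother (maternal) or both parents (dual). All libraries share the tissue, the day and the kit, a TruSeq total RNA preparation. The labels do not say whether replicates came from separate litters, so p-values here measure only the spread between these libraries. All comparisons with control use the same 4 control libraries and are therefore not independent of each other.

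The spliceosome removes introns from pre-mRNA and is built from small nuclear RNAs wrapped in protein. Sm proteins form a ring on the U1, U2, U4 and U5 RNAs. The LSm proteins form a ring of the same kind on U6 RNA in the nucleus, and a sister ring in the cytoplasm that helps remove the cap of mRNAs marked for decay. The SF3A and SF3B complexes belong to the U2 particle and hold it at the branch point of the intron. In the fetal cortex, as in other tissues, these genes are transcribed in all cell types, progenitors and neurons alike.

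Promoters are shown for 3 members because 2 of them, Sf3b2 and Snrpa, were called in the dual comparison in females and have an entry in the RefSeq table, and because Snrpe carries the short word that many members share. Each runs from 250 bases before to 50 bases after the annotated start on GRCm38.p6, on the minus strand, and capitals mark the words searched. The Sf3b2 promoter is at chr19:5295408-5295707, that of Snrpa at chr7:27196222-27196521 and that of Snrpe at chr1:133610231-133610530.
Sf3b2: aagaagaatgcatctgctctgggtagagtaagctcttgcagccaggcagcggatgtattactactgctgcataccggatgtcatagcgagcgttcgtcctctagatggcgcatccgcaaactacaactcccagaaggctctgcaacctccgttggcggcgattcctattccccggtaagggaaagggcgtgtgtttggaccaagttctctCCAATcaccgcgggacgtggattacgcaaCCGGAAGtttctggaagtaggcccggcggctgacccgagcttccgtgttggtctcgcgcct
Snrpa: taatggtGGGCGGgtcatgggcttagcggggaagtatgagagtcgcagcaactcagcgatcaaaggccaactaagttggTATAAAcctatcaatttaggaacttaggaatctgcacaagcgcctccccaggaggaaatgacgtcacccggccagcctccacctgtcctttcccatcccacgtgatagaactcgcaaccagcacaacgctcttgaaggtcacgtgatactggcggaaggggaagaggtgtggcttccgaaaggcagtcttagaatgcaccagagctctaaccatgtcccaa
Snrpe: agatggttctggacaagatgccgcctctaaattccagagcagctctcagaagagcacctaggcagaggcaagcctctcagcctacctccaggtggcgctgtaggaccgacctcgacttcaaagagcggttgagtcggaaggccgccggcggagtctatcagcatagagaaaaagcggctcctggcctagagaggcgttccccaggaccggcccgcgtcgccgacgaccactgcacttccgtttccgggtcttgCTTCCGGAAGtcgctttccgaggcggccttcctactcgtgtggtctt
The search covered both strands. It took the letters GGGCGG of GC boxes, CCGGAAG as bound by ETS factors, CCAAT boxes and the TATAAA form of the TATA box, and, by name, 1 long word each for the factors YY1 and NRF1. RefSeq promoters were matched for 26 of the 33 members in role groups. CCGGAAG was in 11 of the 26 (42.3%), against 16.3% of 11645 promoters of protein-coding genes tested and 9.12% of all 27025 promoters. In the Snrpe promoter it stood on both strands in an overlapping pair, the capitals near the start. GGGCGG was in 69.2% of the member promoters and 62.7% of those of protein-coding genes tested, and CCAAT in 38.5% and 38.2%. TATAAA was in 2 member promoters (7.69%, against 7.29%), 1 of them Snrpa. The YY1 word was in 1 (3.85%, against 1.42%) and the NRF1 word in 0 (against 1.9%). No promoter is printed for Lsm4, Snrpb or Sf3b5, which were also called.

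Levels were compared between members as CPM per kb of exon in the 4 control libraries. Among Sm core genes Snrpe was highest, at 34.6 ± 4.99 CPM per kb (SD, n = 4), and Snrpb, Snrpd1 and Snrpg followed at 32.6, 29.2 and 25.4. The ranges of Snrpe (30.3 to 41.8) and Snrpb (27.2 to 39.0) overlapped. Snrpf, the gene of another ring subunit, stood at 0.814 ± 0.0760 CPM per kb, with 0.459 to 1.22 CPM over all 16 libraries. In the GENCODE M21 annotation 85.4% of Snrpf exon bases are overlapped by exons of other genes on the opposite strand, Ccdc38 among them, and 89.5% of its 50-base words recur in transcripts of other genes, so its count is uncertain. How overlapping or multiply mapping reads were treated is not given in the sources used here.

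Among the proteins of U1 or U2 alone, Snrpa, which binds U1 RNA, was highest at 23.3 ± 2.94 CPM per kb and Snrpc, which helps U1 hold the 5′ splice site, lowest at 5.75 ± 0.7999. Of the SF3 subunits, Sf3b2 and Sf3b1 were highest, at 39.0 ± 4.71 and 37.5 ± 2.52 CPM per kb, and did not differ beyond their spread on this measure of length. Sf3b5, a small subunit of SF3B, was lowest at 4.56 ± 0.795. In the LSm rings Lsm4 was highest, at 25.5 ± 2.62 CPM per kb, above the highest value of every other ring gene. The others ran from 5.19 ± 0.694 for Lsm3 to 10.4 ± 1.16 for Lsm6. Lsm10 and Lsm11, which stand in for SmD1 and SmD2 in the U7 particle that trims histone mRNAs, were alike at 11.3 ± 1.07 and 11.1 ± 0.928. Lsm14b, a protein of cytoplasmic RNA granules, was the highest member of all at 82.5 ± 10.8 CPM per kb, while its relative Lsm14a stood at 14.96 ± 1.77. With the longest transcript as the length instead of the union of exons, Sf3b2 came to 82.7, Snrpe to 70.9, Lsm14a to 31.2 and Snrpa to 40.9 CPM per kb. Sf3b1 came to 68.9, and its range (62.6 to 73.2) then lay below that of Sf3b2 (74.9 to 95.7). The order between genes thus depends on the gene model.

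**Figure D1:**
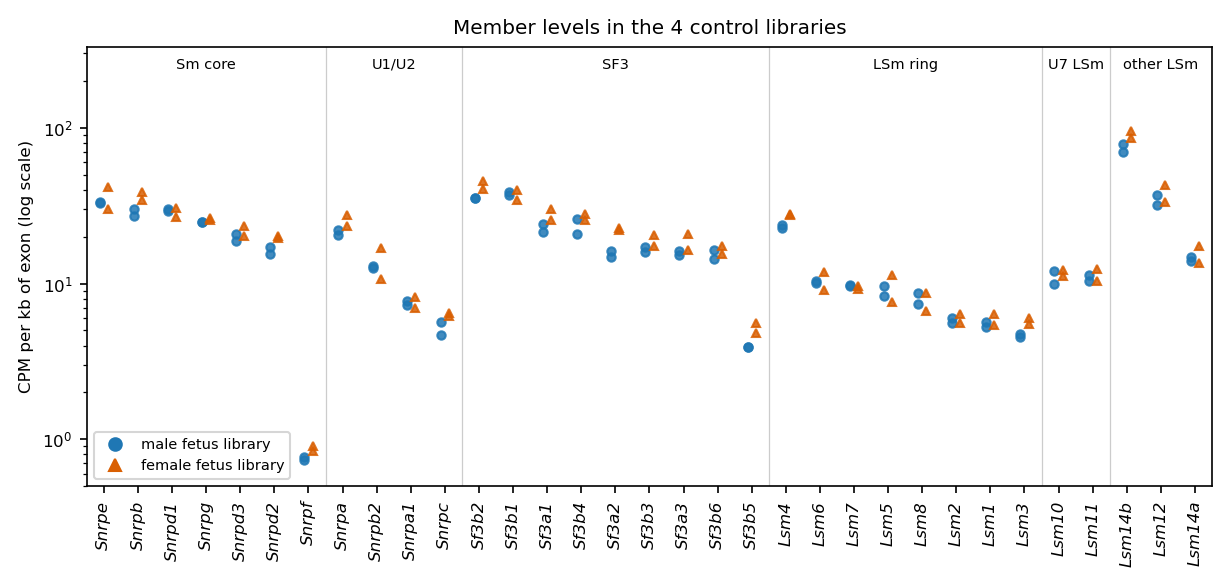
CPM per kb of exon (log axis) of each member in the 2 male and 2 female control libraries, ordered from highest to lowest within each role group. Snrpf sits near 0.8, below every other member shown, and Lsm14b is highest.

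Total counts were 15336566 to 19966696 in male and 26134287 to 35218456 in female libraries, so sex and depth cannot be told apart. Members took 0.207% to 0.274% of all counts, the lowest share being that of male dual replicate 2. In that library 1 gene ID without a symbol took 16.2% of counts, and in male paternal replicate 1 it took 12.3%, against 0.165% to 6.89% in the other male and 0.029% to 0.106% in the female libraries. The 10 cortical neuron markers summed to 4220 to 5027 CPM and the 10 radial glia markers to 1687 to 2059 CPM. Libraries that stand apart bear on the comparisons below. Female control replicate 1 had the highest sum of member levels, 2749 CPM against 2218 to 2540 in the other 15, together with the highest sum of 10 cycling markers (1408 CPM, against 705 to 1149) and the lowest of 10 meningeal markers (90.6 CPM, against 241 to 642). Both female dual libraries had 0.860% and 0.872% of their counts on TEC and sense-intronic genes (annotation classes for transcripts yet to be experimentally shown and for transcripts within introns of other genes), against 0.280% to 0.534% in the other 14. Their sum of 4 nuclear RNAs was 6637 and 7147 CPM, against 3188 to 6095 elsewhere, and Malat1, a nuclear RNA, was 0.96 ± 0.14 log2 higher (SE) in dual than control females (edgeR adjusted p = 0.000296). The highest member sum was 1.24 times the lowest, and 1.15 times on a scale of protein-coding counts alone. The part of these library differences in the results below was not tested except where an alternative is named. In bulk tissue, fewer cells of a type and less RNA per cell cannot be told apart.

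**Figure D2:**
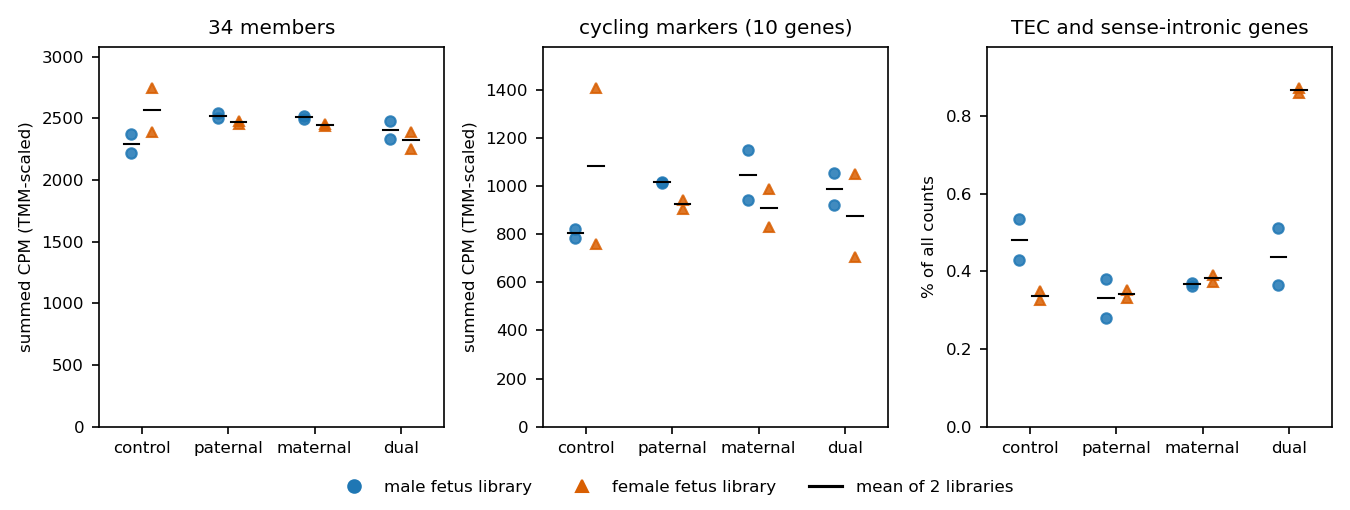
Summed CPM of the 34 members, summed CPM of 10 cycling markers, and the percentage of counts on TEC and sense-intronic genes, for each library by exposure and sex, with bars at the mean of 2 libraries. Female control replicate 1 is highest in the first 2 panels, and the female dual libraries are highest in the last.

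Under dual exposure 1 member was called, and it was lower: Lsm4, a subunit of both LSm rings. Its level was 23.7 and 24.5 CPM in male controls and 28.9 and 28.7 CPM in female controls. With dual exposure it was 19.4 and 21.3 CPM in males and 18.9 and 15.9 CPM in females. All 4 dual libraries lay below all 12 others. Lsm4 was called on these same libraries, so this separation adds no support, and its share over all genes was not computed. Under paternal exposure Lsm4 was at 28.4 and 25.5 CPM in males and 27.9 and 25.4 CPM in females. Under maternal exposure it was at 24.8 and 22.7 CPM in males and 27.7 and 24.9 CPM in females. Of these 8 values, 7 lay within the range of the controls of both sexes pooled, and 1, at 22.7 CPM, lay below it. Within females, the paternal and maternal libraries (24.9 to 27.9 CPM) all lay below both controls. Within males, both paternal libraries lay above both controls, and the maternal ones lay on either side of them.

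Averaged over both sexes, Lsm4 fell by 0.48 ± 0.08 on the log2 scale (SE) with dual exposure, to 0.715 of the control level (edgeR's quasi-likelihood test, Benjamini-Hochberg adjusted p = 0.00431). Of all genes tested, 2.72% were called higher and 0.641% lower in this comparison, against 0 and 1 of 33 members. No 50-base word of Lsm4 transcripts recurs in another gene and no other gene overlaps its exons. The call held when any of the 8 dual and control libraries was left out (adjusted p up to 0.0385) and in DESeq2 (adjusted p = 5.2e-05). It was lost without the female dual libraries, which left males alone to compare (-0.24, edgeR adjusted p = 0.953). It was also lost with protein-coding genes alone (-0.44, edgeR adjusted p = 0.0538) and with the TEC and sense-intronic share as a covariate (-0.34, edgeR adjusted p = 0.986). Under the last 2 settings 0 genes of any kind were called, and that share sets the female dual libraries apart from the rest. With gene IDs that have no symbol left out, Lsm4 was at -0.50 and still called.

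Markers of blood vessels, blood and macrophages mostly had fold changes below 0 with dual exposure over both sexes. All 8 markers of endothelium and pericytes, which line and wrap the vessels, lay below 0 against control (median -0.25 log2), with 1 called lower in edgeR. Their sum was 365 to 375 CPM in dual males and 291 to 326 CPM in dual females, against 400 to 451 CPM in male and 287 to 429 CPM in female controls, so the female groups overlapped. All 8 microglia and macrophage markers (median -0.19) and 6 of 8 erythroid markers (median -0.52) lay below 0, with 0 called. The microglia sum was 61.4 to 69.4 CPM in dual males, against 72.1 to 82.8 CPM in male controls. In females it overlapped, at 41.9 to 49.9 CPM with dual exposure and 47.0 to 65.4 CPM in controls. The erythroid sum was 487 to 525 CPM in dual males and 370 to 373 CPM in dual females, against 689 to 703 and 538 to 651 CPM in controls. No marker of these 3 lists had a count of 0 in any library. Their part in the Lsm4 result was not tested.

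The other members of smallest p under dual exposure did not pass. Lsm2, a further ring subunit, had 18.8, 17.6, 20.2 and 17.5 CPM in the controls and 15.6, 16.7, 14.5 and 14.9 CPM in the dual libraries, males first, a difference of -0.27 ± 0.09 log2 (edgeR adjusted p = 0.102). Its 4 dual libraries lay below its 4 controls, and the share of all genes so separated was not computed. Sf3b5 had 14.99, 15.1, 21.4 and 18.6 CPM in controls and 10.9, 15.8, 15.98 and 13.1 CPM with dual exposure (-0.32 ± 0.11, edgeR adjusted p = 0.118), and these overlapped. Lsm10 had 11.4, 9.32, 11.5 and 10.6 CPM in controls and 9.08, 9.34, 8.30 and 7.70 CPM with dual exposure (-0.32 ± 0.12, edgeR adjusted p = 0.166), and these overlapped in males. Sf3b4, the SF3B subunit that binds RNA near the branch point, was at -0.20 ± 0.08 (edgeR adjusted p = 0.174). Snrpd1, the SmD1 core protein, was the member of smallest p above 0, at 0.16 ± 0.06 (edgeR adjusted p = 0.168), with 62.1, 60.0, 62.6 and 55.1 CPM in controls and 62.2, 69.8, 71.0 and 65.4 CPM with dual exposure. The lowest dual library, at 62.2, was below the highest control, at 62.6.

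Over all 33 members, 10 lay above and 23 below 0 under dual exposure, with a median of -0.07 log2, against -0.04 for protein-coding genes and 0.00 for all genes. At an unadjusted p under 0.05 there were 9 members, 1 higher and 8 lower, against 19.7% of all genes tested. The 2 U7 genes had the lowest group median, -0.23, followed by the SF3 genes at -0.08, of which 8 of 9 were below 0. Sm core genes were split 3 above and 4 below, ring genes 3 and 5. Without female control replicate 1, Lsm11 was also called lower (-0.21) and Snrpb2, Snrpd1 and Lsm14a were called higher (0.34, 0.21 and 0.20). Without male dual replicate 2, Sf3b5 was also called lower (-0.47).

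**Figure D3:**
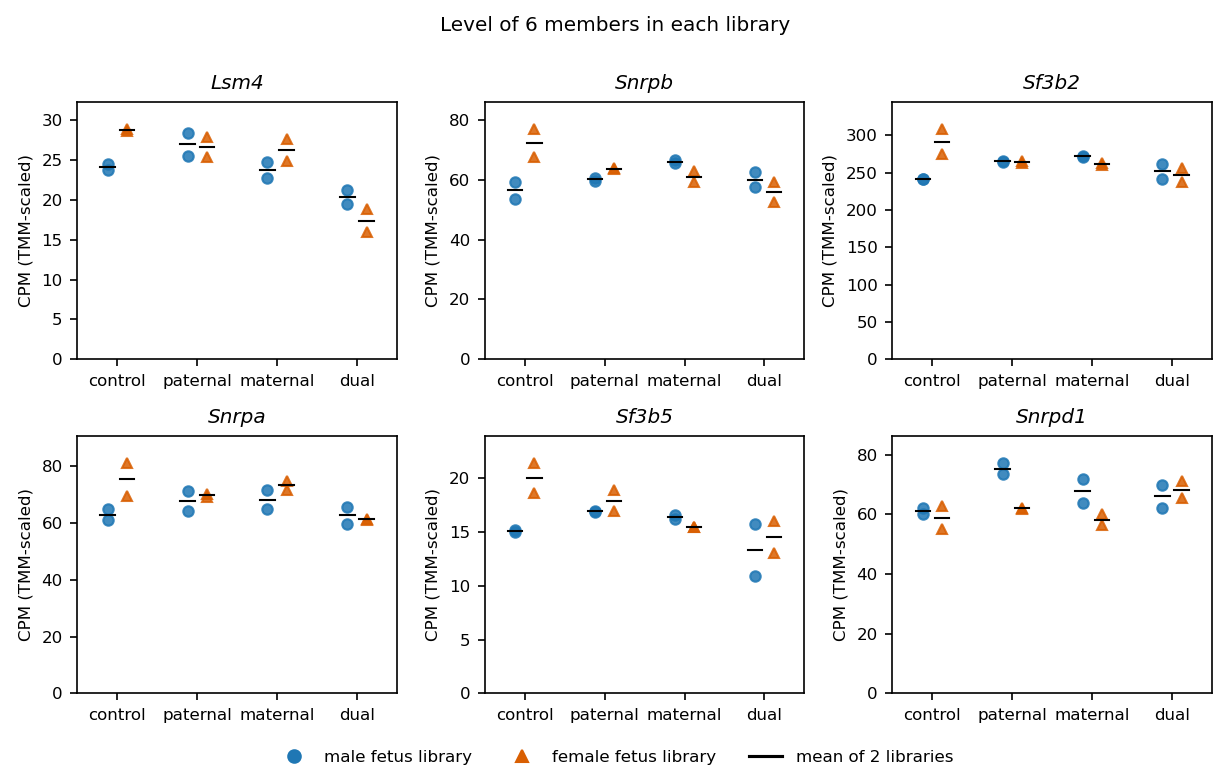
CPM of Lsm4, Snrpb, Sf3b2, Snrpa, Sf3b5 and Snrpd1 in each library by exposure and sex, with bars at the mean of 2 libraries and axes from 0. The 4 dual libraries of Lsm4 lie below its 12 others, while the other genes overlap between exposures.

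In female fetuses 5 members were called lower and 0 higher with dual exposure. Of all genes tested, 9.34% were called higher and 5.64% lower. Lsm4 was the lowest, at -0.72 ± 0.11 log2 (edgeR adjusted p = 0.000624). Snrpb, which encodes the SmB core protein, had 77.02 and 67.8 CPM in female controls and 59.3 and 52.6 CPM in dual females, a fall of 0.37 ± 0.09 log2 (edgeR adjusted p = 0.00919). Sf3b2, a large SF3B subunit, had 308 and 275 CPM against 257 and 238 CPM (-0.24 ± 0.07, edgeR adjusted p = 0.0313). Both dual libraries lay below both controls for each of these genes. Snrpa had 81.1 and 69.7 CPM against 61.5 and 61.3 CPM (-0.30 ± 0.09, edgeR adjusted p = 0.0326). Sf3b5 had 21.4 and 18.6 CPM against 15.98 and 13.1 CPM (-0.46 ± 0.15, edgeR adjusted p = 0.0477). Again both dual libraries were below both controls. The 5 genes were called on these same libraries, so this separation adds no support. It also held in females for members not called, among them Lsm2, Lsm11, Sf3a1 and Snrpc, while others overlapped or lay above. Its share over all genes was not computed. The Sf3b5 call was lost with the replicate number as a block (edgeR adjusted p = 0.0530) and with DESeq2's size factors in edgeR (adjusted p = 0.0509). In all 5 genes the highest of the 16 libraries was female control replicate 1.

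Of the 5 calls, only that of Lsm4 did not depend on a single library. Without female control replicate 1, the library with the highest member sum, only Lsm4 among the 5 was still called, Lsm11 was called lower at -0.37, and Snrpb2 and Snrpd1 were called higher at 0.44 and 0.31. Without female control replicate 2, more members were called lower, and more genes of all kinds were called. Without female dual replicate 2 only Lsm4 was still called, and fewer genes of all kinds were. With gene IDs that have no symbol left out of the totals, 10 members were called lower, beside 1703 of 21506 genes of any kind. With protein-coding genes alone only Lsm4 was, beside 239 of 15056 genes. With the TEC and sense-intronic share as a covariate 0 members and 0 genes of any kind were called, and Snrpb, Sf3b2, Snrpa and Sf3b5 lay above 0. Of 50-base words in their transcripts, 20.2% recur in other genes for Snrpa, 2.72% for Sf3b2, 0.372% for Sf3b5 and 0.0486% for Snrpb. Lsm11, Snrpb2 and other members named for these alternatives were chosen after their values were seen. Over the 33 members, 26 lay below and 7 above 0, with a median of -0.16 log2, against -0.08 for protein-coding genes. At an unadjusted p under 0.05 there were 17, against 29.9% of all genes tested. All 9 SF3 genes were below 0, from -0.46 for Sf3b5 to -0.01 for Sf3b1, the subunit that contacts the branch point.

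In male fetuses 0 members were called with dual exposure in edgeR, as were 0% of all genes in either direction, and 0 members had an unadjusted p under 0.05 (4.86% of all genes). Of the 33, 21 lay above and 12 below 0, with a median of 0.08 log2. Lsm4 was at -0.25 ± 0.12 (edgeR adjusted p = 0.942), its 2 dual libraries below its 2 controls. Other members not called were also separated in males, some below and some above their controls. The share of all genes so separated was not computed. The difference between the sexes in the dual effect passed for 0 members, with 0.733% of all genes called higher and 2.76% lower. It came to 0.48 ± 0.17 log2 for Lsm4, male minus female (edgeR adjusted p = 0.115), and to 0.46 ± 0.13 for Snrpb (edgeR adjusted p = 0.0534), the smallest value of any member. At an unadjusted p under 0.05 there were 10 members, all higher, against 20.4% of all genes. The plot of the dual effect by sex shows both sets of values side by side.

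**Figure D4:**
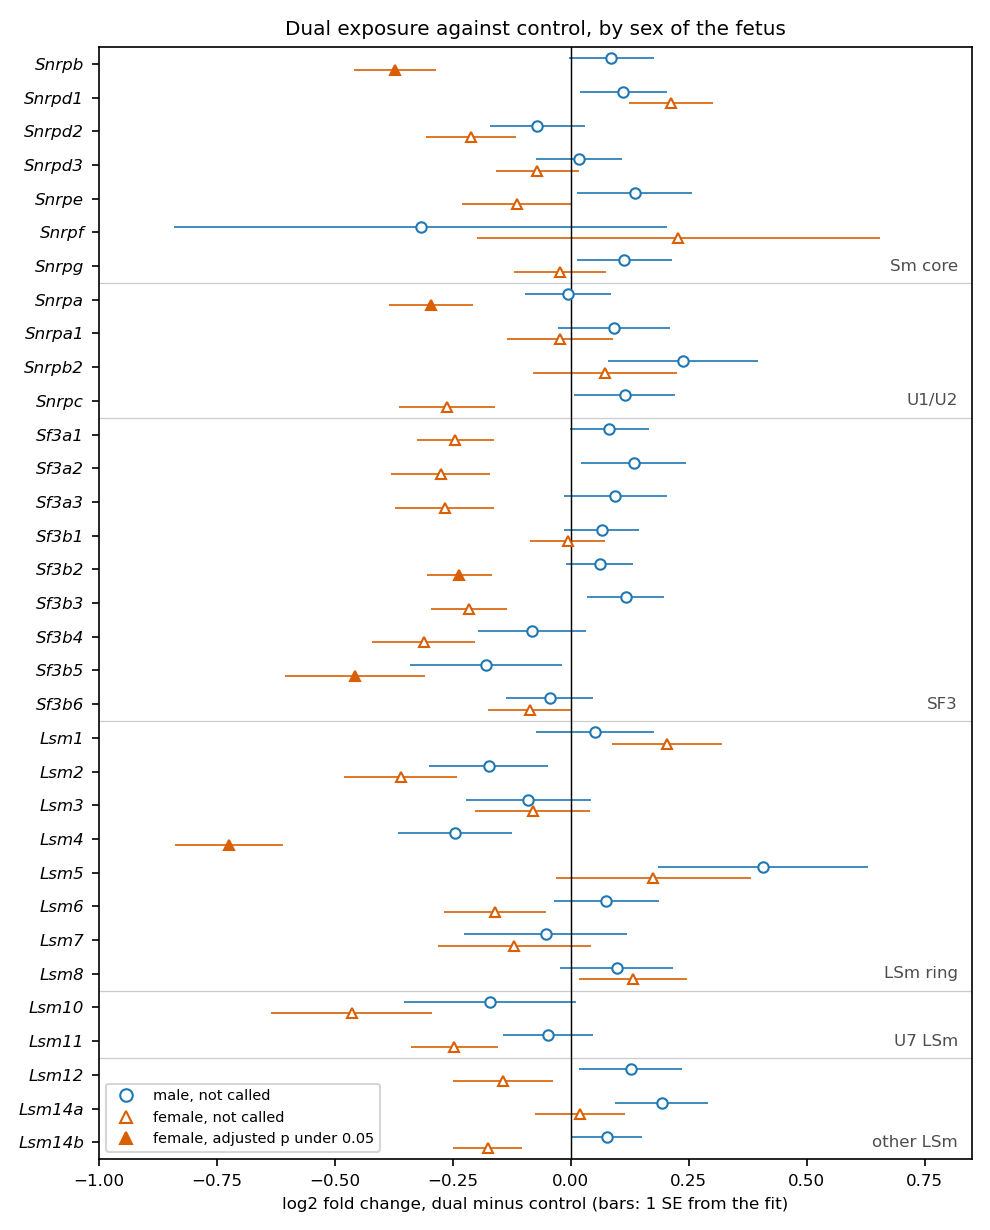
Log2 fold change of each of the 33 members tested, dual minus control, in male (circles) and female (triangles) fetuses, with bars of 1 SE and filled symbols where the adjusted p is under 0.05. Lsm4, Snrpb, Sf3b5, Snrpa and Sf3b2 are filled in females, none in males, and all 9 SF3 genes lie below 0 in females.

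Paternal exposure called 0 members in edgeR and 0 in DESeq2 (smallest edgeR adjusted p = 0.47), and 0% of all genes tested were called higher or lower. At an unadjusted p under 0.05 there were 2 members, Snrpd1 above and Lsm10 below 0, against 8.45% of all genes. Snrpd1 had 73.5 and 77.04 CPM in males and 62.2 and 61.9 CPM in females, against 62.1, 60.0, 62.6 and 55.1 CPM in the controls, a difference of 0.19 ± 0.06 log2. The male paternal libraries were above all 4 controls, and the female ones within their range. The share of all genes so placed was not computed. Lsm10 had 7.59, 8.90, 10.3 and 8.23 CPM, males first, a difference of -0.29 ± 0.12. Lsm1, which marks the cytoplasmic ring, had 20.3, 19.0, 18.7 and 19.9 CPM against 17.6, 16.3, 19.6 and 16.7 CPM in controls (0.15 ± 0.09). Both genes overlapped with their controls. Lsm5, a subunit of both rings, was at 0.22 ± 0.15, Lsm14b at 0.08 ± 0.05 and Snrpd3, the SmD3 core protein, at 0.08 ± 0.06. The median member was at 0.03 log2, with 23 above and 10 below 0, against 0.01 for protein-coding genes. Without female control replicate 1, Snrpd1 and Snrpb2, a U2 protein, were called higher at 0.24 and 0.32.

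Maternal exposure called 0 members in edgeR and 0 in DESeq2 (smallest edgeR adjusted p = 0.998), 0 at an unadjusted p under 0.05 (3.79% of all genes), and 0% of all genes tested in either direction. Those of smallest p were again led by Lsm1, with 18.1, 19.7, 19.5 and 20.7 CPM, males first, a difference of 0.15 ± 0.09 log2. Lsm14a, which works with Lsm14b in repressing translation in RNA granules, had 109, 102, 90.02 and 93.8 CPM, against 91.0, 85.7, 107 and 83.1 CPM in controls (0.10 ± 0.07). In both genes the maternal libraries overlapped with the controls. Lsm5 was at 0.22 ± 0.15, Lsm10 at -0.17 ± 0.12, Lsm8, which marks the nuclear ring, at 0.10 ± 0.08 and Lsm14b at 0.06 ± 0.05. The median member was at 0.02 log2, with 20 above and 13 below 0, against 0.01 for protein-coding genes.

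Split by sex, the members lay on opposite sides of 0 under both single exposures, with 0 called in each. In males 30 of 33 lay above 0 with paternal exposure (median 0.16 log2) and 28 with maternal (0.12), against 54.4% and 54.6% of protein-coding genes. In females 26 of 33 lay below 0 with paternal (-0.10) and 29 with maternal exposure (-0.08), against 47.8% and 45% of protein-coding genes above 0. At an unadjusted p under 0.05 there were 6 members in paternal males (10.4% of all genes), 1 in paternal females (7.89%), 8 in maternal males (7.92%) and 4 in maternal females (4.7%). The 2 exposures share their controls within a sex. The paternal and maternal member sums (2438 to 2540 CPM) lay above both male controls (2374 and 2218 CPM). In females they lay between the controls, below replicate 1 (2749 CPM) and above replicate 2 (2393 CPM). The split by sex was not refitted without any control library, and the part of single control libraries in it was not tested. The median over both sexes went from 0.03 to 0.09 for paternal and from 0.02 to 0.08 for maternal exposure without female control replicate 1, and to -0.01 and -0.03 without female control replicate 2.

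Against the single exposures, dual exposure called Lsm4 lower and 0 members higher each time. The difference was -0.51 ± 0.08 log2 against paternal (edgeR adjusted p = 0.00114; 6.65% of all genes higher and 2.16% lower) and -0.41 ± 0.08 against maternal exposure (edgeR adjusted p = 0.00803; 4.42% and 1.34%). Dual exposure departed from additivity of both single effects by -0.43 log2 for Lsm4 (edgeR adjusted p = 0.0446; 3.49% of all genes higher and 0.724% lower). Endothelial markers were called lower too, 6 of 8 against paternal, 4 of 8 against maternal exposure and 3 of 8 for non-additivity, as were 3 of 8 erythroid markers against each single exposure and 3 of 8 microglia markers against paternal exposure. Their part in these results was not tested. The non-additivity call for Lsm4 was lost in 15 of 24 alternatives, among them 11 of the 16 that left out a library. The call against paternal exposure was lost in 1 of 16 alternatives, the covariate, and that against maternal exposure in 3, which were the covariate, protein-coding genes alone and male dual replicate 1 left out. Against paternal exposure, Snrpd2 was also called lower without male paternal replicate 2 (-0.26), and Sf3b4 and Sf3b5 without male dual replicate 2 (-0.30 and -0.50). Between male and female libraries over all exposures 0 members were called in edgeR, with 0.404% of all genes higher and 0.473% lower. There were 5 at an unadjusted p under 0.05, against 11.4% of all genes.

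The members' dual effect went with the GC content of their transcripts, and so did that of genes at large. Lsm4 has 59.4% GC, Snrpb 57.7% and Snrpa 57.4%, while Lsm5 has 36.6%. In dual females the 6 members over 55% GC had a median of -0.30 log2 and the 7 under 45% a median of 0.07, against -0.18 and 0.07 for protein-coding genes. Spearman's rho between GC content and log2 fold change was -0.74 across 33 members and -0.35 across 15009 protein-coding genes, all points sharing the same 4 libraries. In dual males it was -0.29 and -0.22. Over both sexes it was -0.69 and -0.42 for dual exposure, -0.69 and -0.24 for paternal and -0.44 and -0.14 for maternal exposure, members first. Between male and female libraries it was -0.56 and -0.43. The relation was thus not particular to dual exposure. GC content was then used as an offset per library, an alternative chosen after seeing the data. The offset was fitted over 21506 genes of any kind, so it does not correct for the relation among protein-coding genes given above. With it, Lsm4 was lower in dual females (-0.58 ± 0.11, edgeR adjusted p = 0.00344) and over both sexes (-0.37 ± 0.08, edgeR adjusted p = 0.0269). Sf3b5, with a transcript of 45.5% GC, was also lower in females under this offset (-0.59 ± 0.15, edgeR adjusted p = 0.0158). Snrpb (-0.24), Sf3b2 (-0.15) and Snrpa (-0.17) no longer passed (edgeR adjusted p = 0.118, 0.224 and 0.288). Lsm5, Snrpb2, Snrpe and Sf3b1 were then called lower at -0.81, -0.51, -0.37 and -0.29, beside 1678 of 21506 genes of any kind called lower in females. For Lsm5 and Snrpb2 the offset reversed the direction. Without it, mean Lsm5 in females was 8.47 CPM with dual exposure against 7.51 CPM in controls. Mean Snrpb2 was 41.3 against 39.3 CPM.

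**Figure D5:**
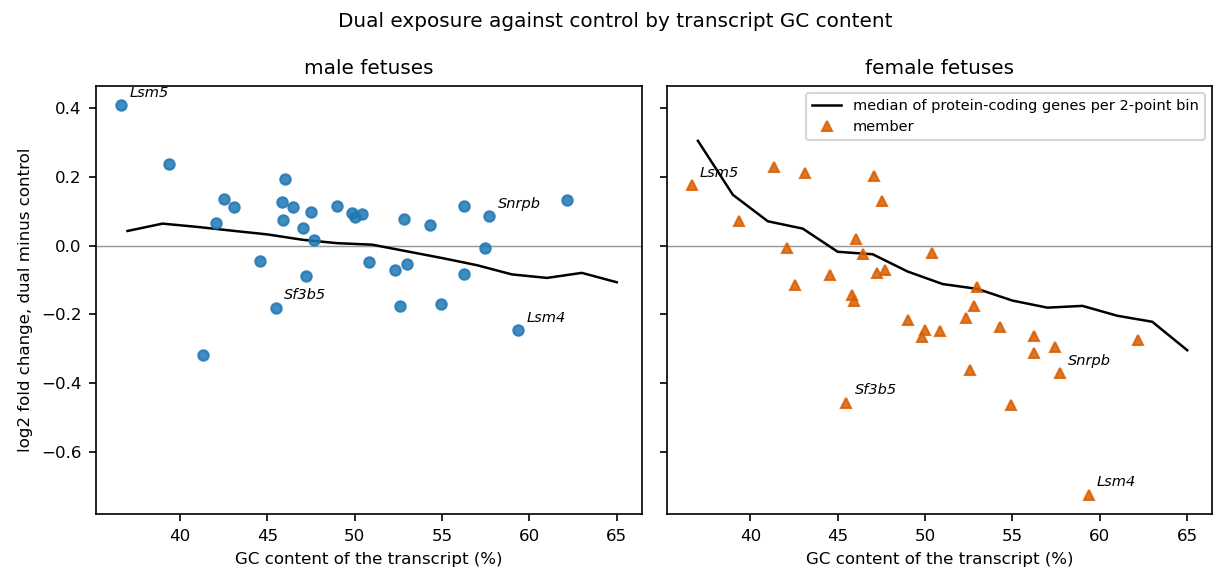
Log2 fold change of each member, dual minus control, against the GC content of its transcript in male and female fetuses, with a line through the medians of protein-coding genes in bins of GC content. In females both members and line fall from low to high GC, and Lsm4 (59.4% GC) lies at -0.72, below the line.

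Other genes of the spliceosome and of mRNA decay, were taken in 7 lists chosen with earlier results known. Under dual exposure over both sexes, 1 of their 79 genes tested was called higher (1.27%) and 1 lower (1.27%), beside 2.72% and 0.641% of all genes. The first was 1 of 7 genes named Snrnp, Snrnp48, a protein of the minor spliceosome (0.39 ± 0.08 log2, edgeR adjusted p = 0.0107). In the decapping list, whose products act with the cytoplasmic LSm ring, 1 of 9 was called lower, the scaffold Edc4 (-0.19 ± 0.05, edgeR adjusted p = 0.0475). The lists of U4/U6 and U5 proteins (13 tested), assembly of the Sm ring by the SMN complex (14), branch point recognition (10), the Prp19 complex (14) and SR proteins (12) had 0 called in edgeR. Snrpn, the neuronal and imprinted relative of Snrpb that the rule leaves out, stood at 85.4 to 97.4 CPM in all libraries (-0.04 ± 0.05 with dual exposure, edgeR adjusted p = 0.711).

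In dual females 3 of the 79 were called higher (3.80%) and 9 lower (11.4%), beside 9.34% and 5.64% of all genes. Lower were Prpf8, the core scaffold of U5 (-0.34 ± 0.07, edgeR adjusted p = 0.00491), Txnl4a (-0.37), Snrnp200 (-0.30), the helicase that unwinds U4 from U6, and Snrnp40 (-0.34). Prpf19, the ubiquitin ligase of its complex, was at -0.31, Puf60 at -0.27 and Edc4 at -0.26. Prmt5, which methylates Sm proteins before assembly, was at -0.34 and its neighbour in the SMN list, Strap, at -0.25. All of these passed in edgeR with adjusted p between 0.00491 and 0.0433. Higher were Snrnp48 (0.68 ± 0.11, edgeR adjusted p = 0.000663) and the SR proteins Tra2a (0.52 ± 0.10, edgeR adjusted p = 0.00331) and Srsf11 (0.30 ± 0.09, edgeR adjusted p = 0.0290). The dual effect differed between the sexes for Snrnp200 (0.43 male minus female, edgeR adjusted p = 0.0337), Tra2a (-0.63, edgeR adjusted p = 0.0281) and Gemin7 of the SMN complex (0.84, edgeR adjusted p = 0.0478). Against paternal exposure 2 of the 79 were called higher with dual exposure and 3 lower, beside 6.65% and 2.16% of all genes. Higher were Snrnp48 (0.38, edgeR adjusted p = 0.00588) and Tra2a (0.29, edgeR adjusted p = 0.0219), and lower were Srsf2, Strap and Prpf19 (-0.25, -0.23 and -0.19).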

How the data were processed

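For each of the 16 libraries the deposited file holds raw counts by gene. Trimmomatic, STAR and featureCounts are listed in the submitters' processing notes, with build GRCm39 (mm39). Tool versions, gene annotation, strandedness and handling of multiply mapped or overlapping reads: not given in the sources used here. Gene classes, lengths and transcripts came from GENCODE M21 (GRCm38), another build, so no gene coordinates are given with counts. Symbols matched 52083 of 55359 IDs.

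Counts were fitted with edgeR 4.0.16 in R 4.3.3: filterByExpr (minimum count 10, minimum total 15; 21543 genes kept), TMM scaling, 8 group means over 16 libraries, and two-sided quasi-likelihood tests with Benjamini-Hochberg adjustment over all genes within a comparison, called at 0.05. Comparisons of exposures average both sexes equally. CPM are TMM-scaled. Members and lists were chosen with earlier results of these data known, so no set test was run and counts and medians of members are descriptions. Members named are those called, or the 6 of smallest p where fewer passed, per exposure against control. For other contrasts all members called are named, though up to 4 had been planned. The highest and lowest per kb of each role group are named too. Of each other list up to 3 called genes were named. The fit was tested on simulated data. Precision is limited by 2 libraries per group and by 15336566 to 35218456 counts per library.

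The other settings tried were DESeq2 1.42.0, edgeR with the size factors of DESeq2, all genes unfiltered, a block for replicate number, sex and exposure without interaction, the compared groups alone, protein-coding genes alone, the TEC and sense-intronic share as a covariate, IDs without a symbol left out, each sex alone, the female dual libraries left out, each library left out, and, chosen after seeing the data, transcript GC content as an offset. Values for each sex alone were read from the main fit, without a refit. The setting without the female dual libraries was a refit that compared dual with control males. All alternatives for dual exposure in females, dual against either single exposure and non-additivity were also added after seeing the data.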

Additional observations from a re-analysis of the deposited data

Results flagged for a closer look

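Of 64 sets of 4 libraries checked (the member sum and each named member in each exposure), 1 had a library far from the others. It was Sf3b5 under paternal exposure, where female paternal replicate 1 had 18.8 CPM and the other 3 libraries 16.8 to 16.96 CPM. Chance marks about 1 set in 20.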

How the results depend on the processing

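Of 814 values under alternatives for 56 results, 698 were marked as unchanged. For the fold change of a gene this meant the same direction and side of the threshold, and for levels per kb a change below the SD. Many were counts of 0 members that stayed 0, such as those called lower for paternal exposure (20 of 20). Lsm4 in non-additivity was unchanged in 9 of 24 and Sf3b5 in dual females in 6 of 12. DESeq2, its size factors in edgeR, no filter, the additive model and the compared groups alone changed no direction and no count of members called by more than 1.5 times. Under the replicate block Lsm4 stayed at -0.49 with dual exposure and no count moved by more than 1.5 times, but in dual females Sf3b5 was lost (edgeR adjusted p = 0.0530) and Sf3a1 gained (-0.24), leaving 5. With DESeq2's size factors in edgeR Sf3b5 was lost too (adjusted p = 0.0509). Of 28 pairs of same-numbered libraries, 1 had a correlation over 0.1 (-0.14 to 0.18). These pairs span all groups, so they cannot decide whether the male and female libraries of an exposure were paired. With protein-coding genes alone, members called lower went to 0 for dual against control, dual against maternal and non-additivity, and to 1 for dual females. Genes of any kind called lower were then 0, 8, 0 and 239 of 15056. With the TEC and sense-intronic share as a covariate, 0 members were called in any comparison, and medians turned to -0.020 (paternal), -0.00106 (maternal) and 0.16 (dual). Sf3b5 and Sf3b4 then stood at 0.092 and 0.26 with dual exposure, and Snrpb, Sf3b2, Snrpa and Sf3b5 at 0.093, 0.011, 0.31 and 0.45 in dual females. That share nearly coincides with the female dual group, so the 2 cannot be told apart. Without IDs that have no symbol, 10 members were lower in dual females and 0 in non-additivity, beside 1703 and 133 of 21506 genes of any kind. With the GC offset the members called lower were 2 for dual against paternal exposure and 0 for non-additivity, beside 1103 and 591 of 21506 genes of any kind. Without the female dual libraries, a refit that compared males alone, the dual median was 0.077 with 0 called lower. In males alone, read from the main fit, the medians were 0.16 (paternal), 0.12 (maternal) and 0.075 (dual, with 0 called lower). In females alone they were -0.10, -0.080 and -0.16 (5 called lower), and Lsm14b (-0.062) and Snrpd3 (-0.023) turned negative for paternal, Lsm14a (-0.051) and Lsm14b (-0.038) for maternal exposure. Leaving out 1 library at a time gave 0 to 2 members higher for paternal, 0 to 3 higher and 1 to 2 lower for dual, 0 to 2 higher and 1 to 14 lower for dual females, 1 to 3 lower for dual against paternal, 0 to 1 for dual against maternal and 0 to 2 for non-additivity. The number of genes of any kind called also changed with the library left out. Medians ran from -0.0086 to 0.090 (paternal), -0.027 to 0.075 (maternal, turning to -0.00124 without male control replicate 2) and -0.10 to -0.020 (dual). The cause of these changes was not tested, beyond the fewer genes or libraries in the fit. Depth and 2 libraries per group limit what can be seen.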
